A study of Mus musculus with 4 samples.

Results

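CpG-rich promoters that carried no peak in a map of chromatin near PML bodies are described here. A promoter was the window 1 kb either side of the 5' end of an autosomal protein-coding gene of GENCODE M21 (mouse genome build mm10). It counted as CpG-rich where CpG dinucleotides reached at least 0.70 of the number expected from its C and G content over 500 bp either side of the 5' end. It counted as lacking a peak where no peak of the deposited list reached into the window by 1 bp. Of 20807 autosomal promoters, 7372 were CpG-rich (35.4%), and 2159 of those had no peak: 29.3% of the class, with an exact Clopper-Pearson 95% interval of 28.2% to 30.3%. Over all autosomal promoters the share without a peak was 59.7%. The other 5213 CpG-rich promoters had a peak and are the comparison throughout. The peaks themselves chose the members, so their share is a description and no test was made of it.

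The peaks come from ALaP-seq, in which the peroxidase APEX is fused to PML and marks surrounding chromatin with biotin for capture and sequencing. The series holds 4 libraries from E14 mouse embryonic stem cells with an APEX-PML knock-in, cultured with serum, leukemia inhibitory factor, CHIR99021 (an inhibitor of the kinase GSK3) and PD0325901 (an inhibitor of the kinase MEK). H2O2, which starts the biotin reaction, was given to 2 libraries' cells (H2O2+) and left out for the 2 negative controls (H2O2-), and both groups carry the knock-in. The labels do not say how many clones were used. The peak list merges replicates and gives only the place of 26496 peaks (median width 223 bp), so no value per library, no replicate spread and no comparison of H2O2+ with H2O2- was possible, and the depth behind a peak or its absence is unknown. A promoter without a listed peak may lie below the authors' threshold or in a region they removed, and is not shown to lie away from PML bodies.

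PML bodies are nuclear structures that PML builds together with the small modifier SUMO and with many SUMO-modified partners. CpG islands are stretches dense in unmethylated CpG at which most housekeeping genes and many developmental genes start. In embryonic stem cells the islands of transcribed genes are held open by transcription factors and RNA polymerase, whereas those of many silent developmental regulators are covered by Polycomb complexes.

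Promoter sequences show what the class looks like at the level of bases. For the 6 gene lists with the most members lacking a peak, the member with the longest CpG island is set beside the member of the same list that had a peak and lay nearest to it in CpG observed/expected. Each line gives the 120 bases upstream of the 5' end, 5′ to 3′ on the gene's strand, from GRCm38 (mm10). Capitals mark, on either strand, the 8 short words described below that had lower odds of no peak in the word fit, such as the ETS word CCGGAAG and the NF-Y word CCAAT.
Slc18a3, without a peak, chr14:32464851-32464970, minus strand: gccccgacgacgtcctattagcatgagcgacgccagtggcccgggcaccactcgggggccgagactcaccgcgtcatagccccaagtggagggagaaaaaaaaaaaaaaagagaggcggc
Slc25a23, with a peak, chr17:57059864-57059983, minus strand: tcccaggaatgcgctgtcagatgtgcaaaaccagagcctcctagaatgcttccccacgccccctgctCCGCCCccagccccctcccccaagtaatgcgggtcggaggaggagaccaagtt
Cul4a, without a peak, chr8:13105501-13105620, plus strand: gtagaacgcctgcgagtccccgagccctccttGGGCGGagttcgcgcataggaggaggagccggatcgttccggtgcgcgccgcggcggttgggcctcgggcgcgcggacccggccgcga
Rnf4, with a peak, chr5:34336169-34336288, plus strand: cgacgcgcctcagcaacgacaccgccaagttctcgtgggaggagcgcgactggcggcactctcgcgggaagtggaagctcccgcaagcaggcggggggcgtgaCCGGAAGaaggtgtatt
Zfp423, without a peak, chr8:87959596-87959715, minus strand: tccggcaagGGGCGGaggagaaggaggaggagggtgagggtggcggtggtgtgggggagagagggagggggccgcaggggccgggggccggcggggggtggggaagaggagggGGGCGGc
Zfp382, with a peak, chr7:30121822-30121941, plus strand: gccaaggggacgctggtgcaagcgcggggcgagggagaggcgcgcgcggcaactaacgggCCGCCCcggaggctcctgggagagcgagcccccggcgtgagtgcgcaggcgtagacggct
Tlx3, without a peak, chr11:33203590-33203709, minus strand: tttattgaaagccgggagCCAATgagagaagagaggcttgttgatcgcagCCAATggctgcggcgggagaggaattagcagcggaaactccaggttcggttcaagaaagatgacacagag
Nkx6-2, with a peak, chr7:139582798-139582917, minus strand: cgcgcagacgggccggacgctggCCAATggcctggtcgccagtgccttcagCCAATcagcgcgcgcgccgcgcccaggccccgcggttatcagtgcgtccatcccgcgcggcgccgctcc
Inhbb, without a peak, chr1:119422249-119422368, minus strand: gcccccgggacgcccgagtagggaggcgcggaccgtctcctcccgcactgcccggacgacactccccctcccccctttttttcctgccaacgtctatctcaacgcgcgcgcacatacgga
Gdf9, with a peak, chr11:53430903-53431022, plus strand: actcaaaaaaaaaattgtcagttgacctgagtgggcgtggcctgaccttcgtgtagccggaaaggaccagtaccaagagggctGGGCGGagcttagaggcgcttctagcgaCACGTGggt
Col27a1, without a peak, chr4:63213884-63214003, plus strand: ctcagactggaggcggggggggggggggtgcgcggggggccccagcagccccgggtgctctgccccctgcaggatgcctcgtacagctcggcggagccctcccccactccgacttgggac
Fbln1, with a peak, chr15:85205829-85205948, plus strand: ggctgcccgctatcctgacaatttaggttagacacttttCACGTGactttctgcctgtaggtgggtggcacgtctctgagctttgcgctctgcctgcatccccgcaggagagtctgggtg

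In these lines Slc18a3, which encodes the vesicular acetylcholine transporter, and Inhbb, which encodes an activin and inhibin subunit, held none of the marked words, while their partners Slc25a23 and Gdf9 held 1 and 2 different ones. Cul4a, a ubiquitin ligase scaffold, held a GC box, and its partner Rnf4, a ubiquitin ligase that recognises SUMO chains, held the ETS word CCGGAAG. Tlx3 and Nkx6-2, which encode homeodomain factors of neurons, each held CCAAT at 2 places. Col27a1, a collagen gene, held none of the words, and Fbln1, which encodes the matrix protein fibulin, held the E-box CACGTG. The stretch of Zfp423 held GGGCGG at 2 places and that of Zfp382 held it once. The pairs have CpG observed/expected values close to each other by construction (0.781 and 0.787 for Slc18a3 and Slc25a23, 0.885 and 0.885 for Cul4a and Rnf4, 0.962 and 0.978 for Tlx3 and Nkx6-2), but in 5 of the 6 pairs the member without a peak had the higher GC content over 500 bp either side, for example 67.5% for Slc18a3 against 60.9% for Slc25a23 and 71.7% for Cul4a against 61.8% for Rnf4.

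CpG observed/expected was nearly the same in both groups, each of which had to pass the same threshold for it. This measure is scaled to C and G content, and the number of CpG per base was not compared. The median CpG observed/expected was 0.822 without a peak and 0.826 with a peak. Across steps of 0.05 the share of promoters without a peak lay between 27.0% and 31.1%, and it reached 36.9% (32.2% to 41.8%) only in the 401 promoters at or above 1.00. GC content differed more. Promoters without a peak had a median GC content of 64.5%, against 61.7% with a peak. The share without a peak was 20.5% of 728 promoters at 50 to 55% GC, 26.4% of 2169 at 60 to 65% and 46.8% (43.6% to 50.1%) of 938 at or above 70% GC. No read coverage was used here, so the part of sequencing yield at high GC in this gradient was not tested. Both GC content and CpG observed/expected, with their squares, were therefore held as covariates in the fits that follow.

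Gene models differed as well. Promoters without a peak belonged to longer genes, with a median of 39153 bp against 25571 bp. The share without a peak was 22.4% of 1257 genes of 10 to 20 kb and 54.2% (49.5% to 58.9%) of 450 genes of 200 kb or more. Genes with 1 annotated transcript lacked a peak in 37.7% of 815 cases, and genes with 10 or more in 24.1% of 1164. Of 2164 promoters with no other protein-coding start within 50 kb, 41.1% had no peak, against 19.3% of 928 with 5 or more such neighbours. Divergent promoters, at which a second protein-coding gene starts on the other strand within 1 kb, lacked a peak in 15.5% of 1003 cases, against 31.5% of the 6369 others; in a divergent pair the 2 windows overlap, so that a single peak can serve both. By chromosome the share ranged from 20.2% on chromosome 9 to 37.2% on chromosome 12.

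**Figure D1:**
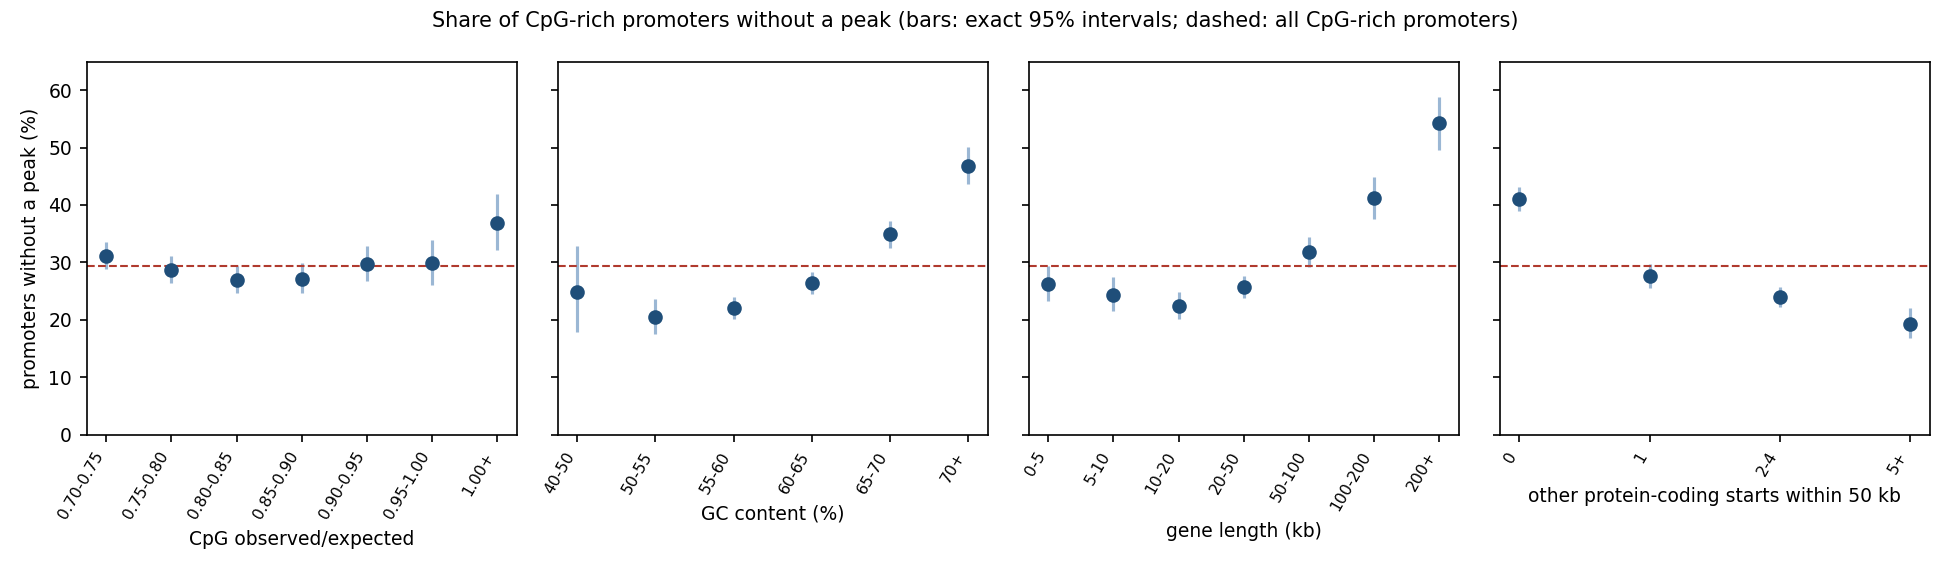
Share of CpG-rich promoters without a peak (vertical axis, percent, with exact 95% intervals) by CpG observed/expected, GC content, gene length in kb and the number of other protein-coding starts within 50 kb. The dashed line is the share over the class, 29.3%; the share is near it over most CpG steps, climbs to 46.8% at the highest GC content and to 54.2% for the longest genes, and falls to 19.3% in the most crowded neighbourhoods.

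A logistic regression over all 7372 promoters, with no peak as the outcome, took 11 such features in 1 model (Wald tests with standard errors clustered by 1 Mb block, Benjamini-Hochberg adjustment over the 11). With the covariates held, 1 feature (9.09%) went with the absence of a peak and 6 (54.5%) went with its presence. Values are log2 odds of having no peak, per SD for measured features. Gene length, the number of transcripts and the number of protein-coding starts within 50 kb entered as logarithms, so their SD is on a log scale. Longer genes had higher odds of no peak (0.40, SE 0.054, adjusted p = 1.22e-12, n = 7372 promoters). A divergent start (-0.85, SE 0.19, adjusted p = 1.38e-05, n = 7372), more annotated transcripts (-0.55, SE 0.057, adjusted p = 2.37e-21) and more protein-coding starts within 50 kb (-0.23, SE 0.056, adjusted p = 0.000114) had lower odds. So did an APPRIS principal transcript, the annotation's choice of main isoform, starting at the 5' end (-0.58, SE 0.14, adjusted p = 9.53e-05, n = 7372), a longer CpG island (-0.38, SE 0.079, adjusted p = 4.45e-06) and a higher GC skew, the excess of G over C downstream of the start (-0.15, SE 0.041, adjusted p = 0.000624).

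Island length is a case in which the fit and the plain medians part: islands measured 1161 bp without a peak and 1167 bp with a peak, and the lower odds appear with GC content and the other features held. For 4 features the test was not passed, namely CpG observed/expected of the flanks from 500 to 2000 bp, the repeat-masked share of the window, the share of transcripts that start at the 5' end and a transcript of the consensus coding set (adjusted p from 0.148 to 0.684). Some of these calls depend on the settings. With windows of 500 bp the flanks had higher odds of no peak (0.17, adjusted p = 0.0126, n = 7372), and with GC content and CpG observed/expected as the only other terms they had lower odds (-0.10, adjusted p = 0.0360). At a CpG threshold of 0.60 the repeat-masked share (-0.093) and the share of transcripts starting at the 5' end (-0.11) passed. The repeat-masked share bears on the map itself, since the authors aligned reads to a repeat-masked genome: its mean was 11.7% of the window without a peak and 12.6% with a peak. The APPRIS term no longer passed when only peaks at or above the median width counted (-0.24, adjusted p = 0.121, n = 7372) or when a peak at any annotated start of the gene counted (-0.29, adjusted p = 0.0814).

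Short words known from transcription factor sites were sought on both strands from 500 bp upstream to 100 bp downstream. Of 24 words, 8 (33.3%) went with the presence of a peak and 4 (16.7%) with its absence, in a logistic regression per word with the same covariates and clustering and Benjamini-Hochberg adjustment over the 24. The ETS word CCGGAAG, the core bound by the ETS family and by GABPA at housekeeping promoters, was present in 16.3% of promoters without a peak and 27.5% with a peak (log2 odds -0.79, SE 0.10, adjusted p = 1.11e-12, n = 7372). It occurs in 14.0% of all 20807 autosomal promoters. GCGCATGC, the core of the NRF1 site, stood in 4.17% against 9.32% (log2 odds -1.11, SE 0.18, adjusted p = 1.73e-08, n = 7372), with 4.22% in all promoters. NRF1 is an activator of genes for mitochondria and growth.

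AAGATGGC, the YY1 word often found just at or after the start, was in 4.77% of promoters without a peak and 8.84% with a peak (log2 odds -0.87, SE 0.18, adjusted p = 6.38e-06, n = 7372), against 5.12% of all promoters. The palindrome of the ZBTB33 class, a word of 10 bases that reads alike on both strands, was in 0.556% against 2.07%, or 12 against 108 promoters (log2 odds -1.86, SE 0.50, adjusted p = 0.000693, n = 7372), and in 0.706% of all promoters. CCAAT, the NF-Y box, was in 48.5% against 56.1% (log2 odds -0.28, SE 0.079, adjusted p = 0.00153, n = 7372), and the E-box CACGTG in 15.1% against 17.9% (log2 odds -0.27, SE 0.11, adjusted p = 0.0245). These words occur in 57.8% and 12.1% of all promoters. The GC box GGGCGG and its extended form CCCGCCC, whose reverse complement contains GGGCGG, were called with the covariates held and not without them: GGGCGG was in 81.5% against 81.7% (log2 odds -0.54, adjusted p = 4.35e-06, n = 7372; without covariates -0.02, adjusted p = 0.900) and CCCGCCC in 64.3% against 62.6% (log2 odds -0.35, adjusted p = 0.000428; without covariates 0.11, adjusted p = 0.342). They occur in 50.1% and 37.2% of all promoters.

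The other 4 called words had higher odds of no peak. The repeat CACACACA was in 9.45% against 7.23% (log2 odds 0.46, SE 0.14, adjusted p = 0.0021, n = 7372). The E-boxes that many tissue-specific factors bind were among them, CAGGTG at 35.8% against 31.4% (log2 odds 0.24, SE 0.080, adjusted p = 0.0064, n = 7372) and CAGCTG at 26.2% against 22.2% (log2 odds 0.25, SE 0.092, adjusted p = 0.0157). The homeodomain word TAATTA was at 6.21% against 6.14%, and its log2 odds of 0.45 (SE 0.16, adjusted p = 0.0132, n = 7372) was not seen without the covariates (0.02, adjusted p = 0.916). In all promoters these words occur in 11.2%, 37.2%, 26.8% and 11.3%. Of the words not called, the TATA box passed with windows of 500 bp (0.27) and at a CpG threshold of 0.60 (0.32). It was in 14.0% of promoters without a peak and 15.3% with a peak, and its log2 odds turned to -0.15 without the covariates. The E2F (-0.73) and extended nuclear receptor (-1.25) words passed with wide peaks only. A word match is a run of letters and not a bound site, and the calls for both palindromic E-boxes and for the homeodomain word were each lost under 4 alternatives.

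**Figure D2:**
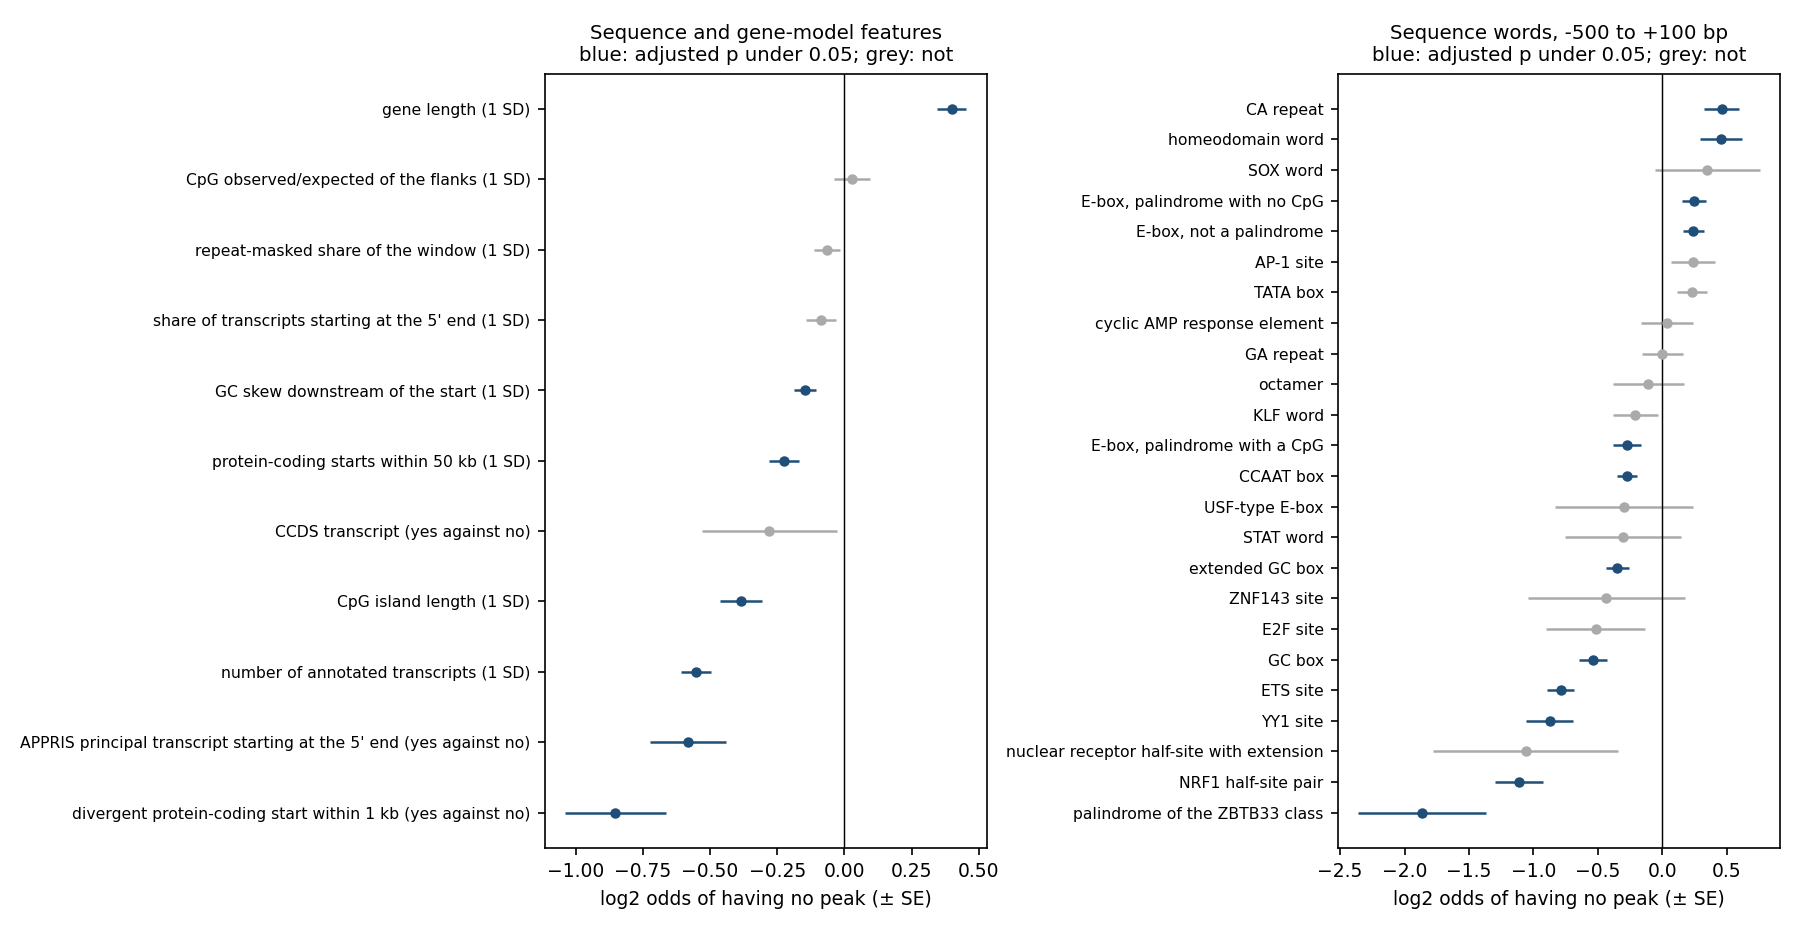
Log2 odds of having no peak (horizontal axis, with standard errors as bars) for gene-model and sequence features on the left and sequence words on the right; points left of the line at 0 go with a peak. Blue points passed an adjusted p of 0.05; gene length stands alone among the features at 0.40, and the palindrome of the ZBTB33 class is lowest among the words at -1.86.

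The ETS, NRF1, YY1 and palindrome words were then counted together, as a description made after their separate values were seen. Of 4747 promoters with none of the 4 words, 34.7% lacked a peak. The share was 20.8% of 2230 promoters with 1 of them and 12.4% (9.22% to 16.2%) of 371 with 2. Of 24 promoters with 3 words, 0 lacked a peak, with an upper limit of the exact interval of 14.2%. Stretches from promoters at that end of the range follow, with the 4 words in capitals: 3 promoters that lacked a peak in spite of 2 words, and 2 with a peak and 3 words, each chosen because its words lie close together, from GRCm38 (mm10) on the gene's strand.
Smap1, without a peak, chr1:23922410-23922467, minus strand: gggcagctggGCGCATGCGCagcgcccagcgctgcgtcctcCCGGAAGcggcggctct
Mark3, without a peak, chr12:111574464-111574522, plus strand: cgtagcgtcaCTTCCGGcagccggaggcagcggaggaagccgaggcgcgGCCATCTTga
Plk4, without a peak, chr3:40799929-40799988, plus strand: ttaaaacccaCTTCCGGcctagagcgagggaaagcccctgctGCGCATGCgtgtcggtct
Gdi2, with a peak, chr13:3537915-3537976, plus strand: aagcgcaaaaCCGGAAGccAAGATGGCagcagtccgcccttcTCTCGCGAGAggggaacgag
Rpa2, with a peak, chr4:132768102-132768203, plus strand: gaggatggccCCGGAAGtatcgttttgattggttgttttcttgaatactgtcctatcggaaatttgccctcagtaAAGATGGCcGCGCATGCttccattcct

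Smap1 encodes a GTPase-activating protein of membrane traffic, Mark3 a kinase that phosphorylates microtubule-associated proteins, and Plk4 the kinase that starts centriole duplication. The peaks nearest to their 5' ends lay 83077, 29178 and 46580 bp away. Gdi2, which keeps Rab GTPases soluble, and Rpa2, a subunit of the protein that coats single-stranded DNA in replication, had peaks over their 5' ends, at chr13:3537995-3538133 for Gdi2 and at chr4:132767949-132768591 for Rpa2.

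Which genes lack a peak was described with 34 gene lists, each by its count beside the 29.3% of the class and with no test, since both rest on the same peaks. In all, 1506 CpG-rich promoters were in a list, among them 460 of the 2159 without a peak, and 14 were in more than 1. The share without a peak was above that of the class in 18 lists and below it in 16.

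The highest shares were in genes by which specialised cells send and receive signals. Of 23 CpG-rich neurotransmitter receptor genes, 20 had no peak (87.0%, 66.4% to 97.2%). Grin1, the obligatory subunit of NMDA-type glutamate receptors, had a CpG observed/expected of 0.975 and its nearest peak 13164 bp away. For Htr7, a serotonin receptor, that distance was 42218 bp, and for Gabbr2, a subunit of the GABA-B receptor, it was 326009 bp, or 22583 bp from the nearest other annotated start. The 3 receptor genes with a peak were Chrna7, Adrb1 and Adra1d, and in Adrb1 and Adra1d the peak edge lay 597 and 773 bp from the 5' end. Secreted signals lacked a peak in 29 of 35 promoters (82.9%, 66.4% to 93.4%). They included Bmp2, a ligand of bone morphogenetic protein receptors, with a nearest peak 273258 bp away, and Wnt3a, a Wnt ligand, with one 46590 bp away. They also included Nog, an inhibitor of bone morphogenetic proteins (59926 bp). Another was Fgf5, a growth factor whose gene is switched on as cells leave the naive state (1637 bp). Among the 6 secreted signals with a peak were Sfrp1, Vegfc and Gdf9.

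Receptors for such signals were closer to the class. Of 41 growth factor and Wnt receptor genes, 14 had no peak (34.1%), among them Acvr2a, an activin receptor (nearest peak 134894 bp away), Fzd3, a Wnt receptor (16815 bp), and Igf1r, the receptor for insulin-like growth factors (104767 bp). From the nearest annotated start of the gene, the distance was 58614 bp for Acvr2a and 18379 bp for Igf1r. Lrp6, a Wnt co-receptor, and Notch2 had peaks. Potassium channel genes lacked a peak in 18 of 27 promoters (66.7%), calcium and sodium channel genes in 9 of 16 (56.2%), and Gpr and Adgr receptor genes in 15 of 23 (65.2%). For genes of cell contact and matrix the counts were 19 of 30 for axon guidance (63.3%), 17 of 27 for cadherins and protocadherins (63.0%), 18 of 31 for synapse and neuronal adhesion (58.1%) and 21 of 33 for collagen and matrix (63.6%). Efna5, an ephrin ligand that guides axons, had an island of 4197 bp and its nearest peak 651593 bp away, while Efnb2, another ephrin, had a peak over its 5' end. Cdh2, which encodes N-cadherin, lacked a peak (nearest at 112725 bp, or 55242 bp from another annotated start), and Celsr1, a cadherin of planar cell polarity, had one 327 bp from its 5' end. Solute carrier genes lacked a peak in 49 of 114 promoters (43.0%, 33.7% to 52.6%).

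Transcription factor genes were divided. Hox genes, which set position along the body axis, lacked a peak in 11 of 17 CpG-rich promoters (64.7%, 38.3% to 85.8%). These were Hoxa4, Hoxa11, Hoxa13, Hoxb8, Hoxb9, Hoxd1, Hoxd3, Hoxd4, Hoxd8, Hoxd9 and Hoxd13, whereas Hoxa5, Hoxb5, Hoxb7, Hoxc11, Hoxc12 and Hoxc13 had a peak. Every one of the 11 had a peak within 50 kb outside its window, beside 60.7% of all CpG-rich promoters without a peak. Hoxa4 had 16 such peaks. Hox genes lie in clusters, so neighbours can share the same peak. Other homeobox genes lacked a peak in 29 of 53 promoters (54.7%, 40.4% to 68.4%), among them Tlx3 with the longest island of the class without a peak (4502 bp, nearest peak 40088 bp away), while En2 and Barhl2 had a peak 78 and 742 bp from the 5' end. The Sox, Fox, Gata and Tbx genes lacked a peak in 17 of 41 (41.5%) and the bHLH and other lineage factors in 21 of 56 (37.5%), and the intervals of both contain the class share.

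In several of these genes a peak lay just beyond the window. Foxc1 and Foxc2, forkhead factors of mesoderm, and Foxo1, a forkhead factor controlled by insulin signalling, had peaks 2033, 2609 and 1775 bp from the 5' end. Zfp genes, whose products carry zinc fingers, were near the class at 33 of 117 (28.2%). Polycomb and trithorax genes, which encode writers and readers of repressive and activating histone marks, stood at 11 of 31 (35.5%), with Bmi1, Rybp and Yaf2 lacking a peak and Cbx2 having one. This list changed to the lower side of the class when only peaks at or above the median width counted (45.2% against 52.2%), and also at a CpG threshold of 0.60 (31.4% against 31.5%).

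Genes that every dividing cell uses were at the other end. Of 67 cytosolic ribosomal protein genes with a CpG-rich promoter, 3 had no peak (4.48%, 0.933% to 12.5%): Rps6, Rpl8 and Rpl38, with the nearest peak 54589, 4022 and 6929 bp away. Mitochondrial ribosomal protein genes lacked a peak in 2 of 47 (Mrpl55 and Mrps25), aminoacyl-tRNA synthetase genes in 1 of 21 (Nars), splicing genes in 4 of 59 and oxidative phosphorylation genes in 5 of 58. The 4 splicing genes were Snrpf, Snrpb, Sf3b3 and U2af1l4. The oxidative phosphorylation genes included Uqcrfs1, the Rieske subunit of complex III, whose nearest peak lay 460129 bp away although its CpG observed/expected was 1.04. Translation factor genes lacked a peak in 6 of 46 promoters, proteasome genes in 3 of 23 (Psma7, Psmb5 and Psmc1), DNA replication and repair genes in 8 of 59 (13.6%), Mediator, RNA polymerase and TFII genes in 11 of 79 (13.9%), and mitosis genes in 7 of 40 (17.5%). The intervals of the proteasome and mitosis lists contain the class share, as does that of ubiquitin pathway genes (36 of 147, 24.5%).

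**Figure D3:**
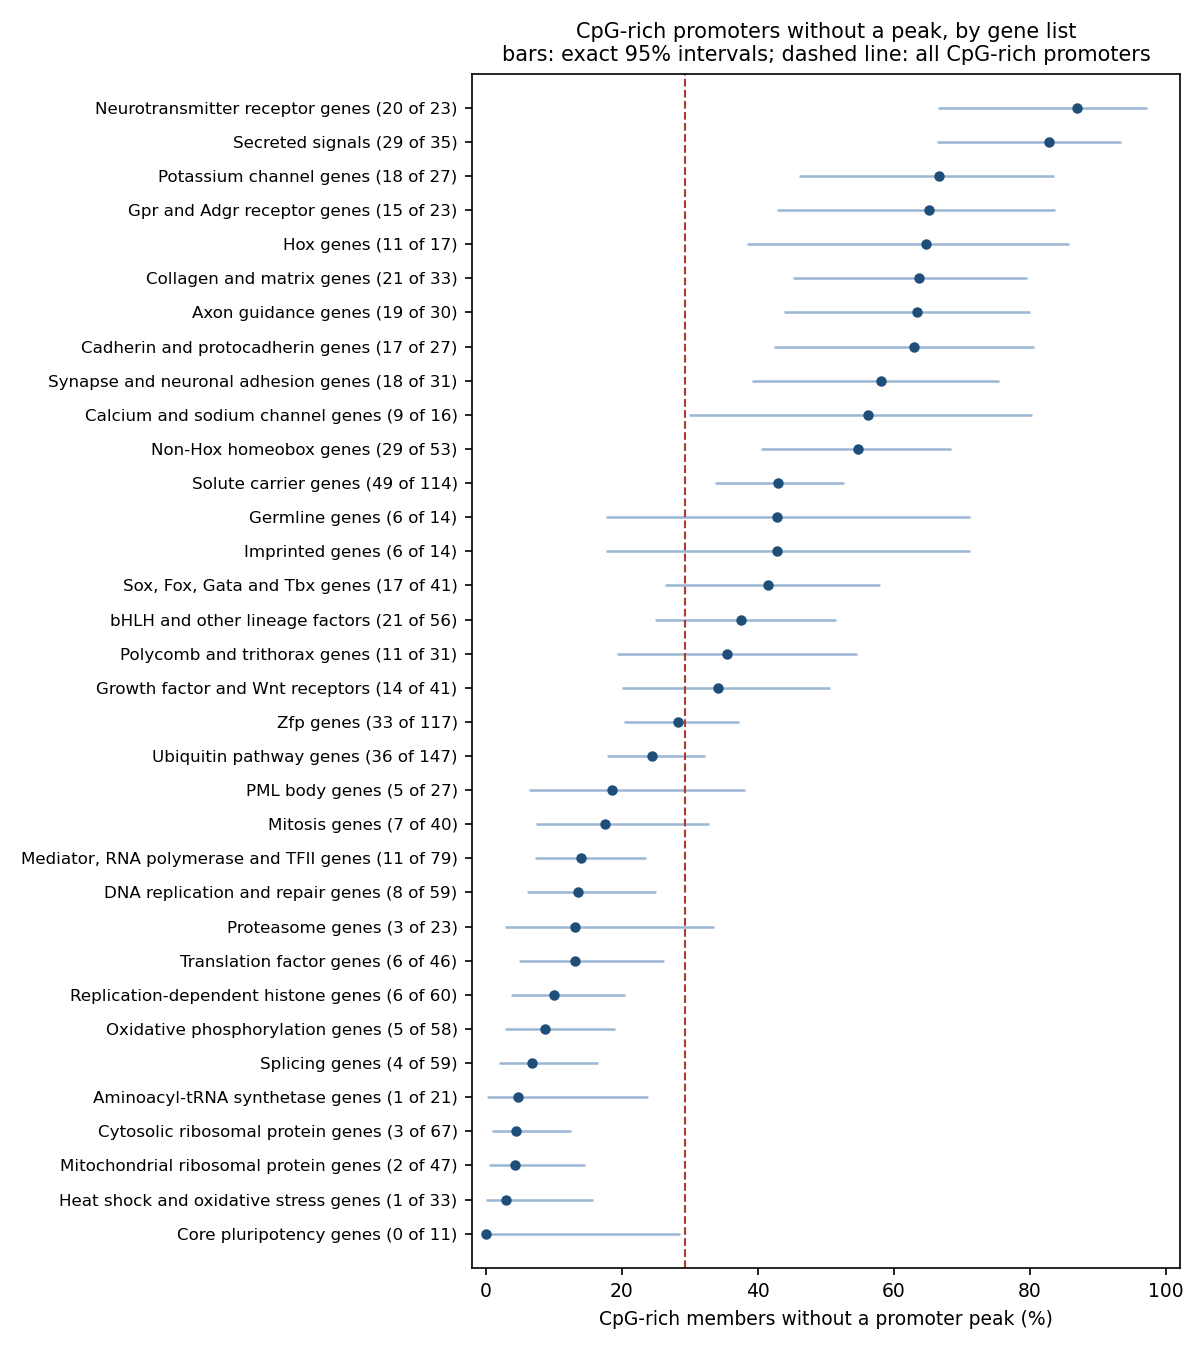
Share of CpG-rich members without a promoter peak (horizontal axis, percent, with exact 95% intervals) for the 34 gene lists, with counts beside each name; the dashed line is the class at 29.3%. Neurotransmitter receptors (20 of 23) and secreted signals (29 of 35) are at the top, and ribosomal protein genes (3 of 67), heat shock and oxidative stress genes (1 of 33) and core pluripotency genes (0 of 11) at the bottom.

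The lists were also counted below and above 65% GC. Below 65% GC the class lacked a peak in 23.9% of 4773 promoters, and at or above 65% in 39.2% of 2599. Neurotransmitter receptor genes lacked one in 11 of 12 promoters below 65% GC and in 9 of 11 above. For cadherins the counts were 12 of 18 and 5 of 9, and for non-Hox homeobox genes 14 of 24 and 15 of 29. Splicing genes lacked a peak in 4 of 41 and 0 of 18, the second count allowing up to 18.5% by the upper limit of its exact interval. Axon guidance genes lacked a peak in 3 of 10 and 16 of 20, calcium and sodium channel genes in 2 of 6 and 7 of 10, and Polycomb and trithorax genes in 4 of 14 and 7 of 17. Below 65% GC every list that was above the class as a whole stayed above it, and those below stayed below. At or above 65% GC 8 of the 34 lists were on the other side: growth factor and Wnt receptors (6 of 24), bHLH and other lineage factors (11 of 35), Sox, Fox, Gata and Tbx genes (10 of 26) and imprinted genes (2 of 6) stood below it, and Zfp genes (16 of 40) and PML body genes (5 of 11) stood above it, as did proteasome (1 of 1) and mitosis genes (1 of 2). Gene length moved with the lists too: the median gene length of members without a peak was 213856 bp for cadherins and 2753 bp for cytosolic ribosomal proteins, and its part in the list shares was not tested.

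The proteins of PML bodies are encoded by genes that mostly had a promoter peak. Of 27 CpG-rich members of that list, 5 had no peak (18.5%, 6.30% to 38.1%), an interval that contains the class share. They were Crebbp, an acetyltransferase and co-activator, Hipk2 and Hipk3, kinases, Pias2, a SUMO ligase, and Ubn1, a subunit of the complex that deposits histone H3.3. Their GC contents were 75.4%, 79.0%, 68.6%, 70.7% and 68.1%, and of the 16 members under 65% GC, 0 lacked a peak (upper limit of the exact interval 20.6%). Their nearest peaks lay 54156, 145472, 95727, 13933 and 35348 bp away from the 5' end, and for Crebbp, Hipk2 and Hipk3 10511, 12567 and 67295 bp from the nearest annotated start. Sumo2, which encodes a SUMO protein, and Daxx, the H3.3 chaperone of these bodies, had a peak over the 5' end.

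Of 28 autosomal core pluripotency genes, markers of the labelled cell type, 11 had a CpG-rich promoter, and these mostly had peaks under every setting. Of the 11, 0 lacked one (upper limit of the exact interval 28.5%), beside 29.3% of the class. With windows of 500 bp 2 lacked one, beside 31.8% of the class, and with wide peaks only 3 did, beside 52.2%. With peak midpoints 1 lacked one. The 11 genes included Sox2, with a peak over its 5' end 888 bp wide, and Lin28b, with one 149 bp away. Klf4 was inside the rule by a narrow margin, since its peak edge lay 998 bp from the 5' end. Heat shock and oxidative stress genes lacked a peak in 1 of 33 promoters (3.03%, 0.0767% to 15.8%). The exception was Gclc, the catalytic subunit of glutathione synthesis, with a peak 3554 bp away. The gene of its partner subunit, Gclm, had a peak over its 5' end. Imprinted genes and germline genes with promoters methylated in somatic cells each lacked a peak in 6 of 14 promoters (42.9%, 17.7% to 71.1%), among them the imprinted Dio3, Nnat and Peg12 and the germline Tdrd5 and Tdrd6.

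Near-identical sequence elsewhere in the genome moved with the absence of a peak in a few places. A copy was a second locus of at least 95% identity over 80% of the sequence 500 bp either side of the 5' end. One was found for 37 promoters without a peak (1.71%) and 11 with a peak (0.211%), so that 37 of 48 such promoters lacked a peak. Of the 6 replication-dependent histone genes without a peak, among 60, 5 had such a copy (Hist1h2ao, Hist1h2ap, Hist1h2bq, Hist1h2br and Hist1h4m). With promoters that have a copy left out, 1 histone gene (1.92%) lacked a peak, Hist3h2ba. How reads with several equal placements were treated is not given in the sources used here.

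Distances to the nearest peak come from the list that also chose the members, and are a description. The median was 34929 bp from the 5' end, and the middle 50% of promoters lay between 12993 and 83294 bp. The nearest peak was at 1 to 2 kb for 104 promoters (4.82%), at 2 to 5 kb for 157, at 5 to 10 kb for 193, at 10 to 50 kb for 859, at 50 to 100 kb for 389 and farther for 457 (21.2%). It was upstream for 1138 and downstream for 1021. Within 50 kb outside the window, 60.7% of promoters without a peak had at least 1 peak, against 76.6% of those with a peak, and the means were 1.80 ± 2.48 and 2.76 ± 3.26 peaks (SD over promoters). From 2 to 5 kb upstream there were 0.162 peaks per promoter per 10 kb without a promoter peak and 0.299 with one, and from 50 to 100 kb upstream 0.196 and 0.267.

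**Figure D4:**
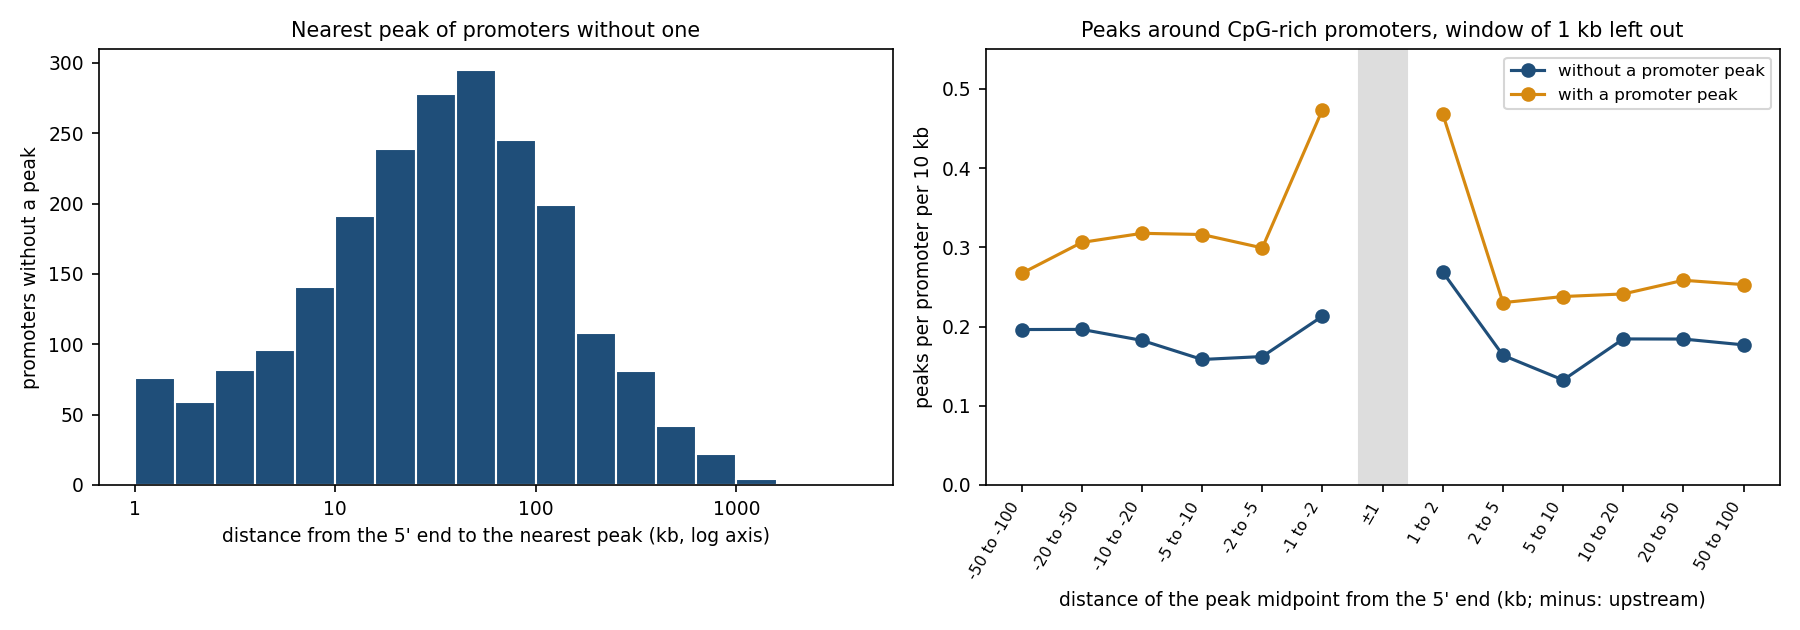
Left, number of CpG-rich promoters without a peak by the distance from the 5' end to the nearest peak (kb, log axis). Right, peaks per promoter per 10 kb by distance of the peak midpoint, upstream (minus) and downstream, for promoters without (blue) and with (orange) a promoter peak, the window of 1 kb left out; the blue values lie below the orange ones in every bin, for example 0.162 against 0.299 from 2 to 5 kb upstream.

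The extremes show how varied the surroundings are. Sfi1, a centrosomal gene, lacked a promoter peak and had 31 peaks within 50 kb, although another annotated start of Sfi1 lay inside a peak. H2-Q10, a class I histocompatibility gene, had 19, and Efna2 and Ube2m had 15 each. At the other end, the nearest peak was 1662068 bp from the predicted gene Gm43517, 1465662 bp from Slitrk1, a synaptic adhesion gene, 1348431 bp from Ikzf2, a zinc finger factor of lymphocytes, 1207044 bp from Cbln2, a synapse organiser, and 1172002 bp from the 5' end of Erbb4, a neuregulin receptor (362261 bp from the nearest annotated start). Long islands were found at both kinds of place. Egr3 and Irs2, with islands of 4001 and 3332 bp, had peaks 1283 and 1187 bp away, and another annotated start of Egr3 lay inside a peak. Fat4 and Ebf2, with islands of 3677 and 3419 bp, had their nearest peaks 526000 and 224103 bp away.

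The 5' end of a gene model is not always the start in use. Of the 2159 promoters without a peak, 175 (8.11%) belonged to genes with a peak within 1 kb of another annotated start. Otx2, a homeobox factor of the early embryo, had a peak 107 bp from such a start and 4601 bp from its 5' end. Foxp1 had one 38 bp from another start and 92648 bp from its 5' end, and for Wnt5b, Nrg1 and Rybp the distances to another start were 0, 25 and 39 bp. Counting a peak at any annotated start lowered the share of the class without a peak to 26.9%.

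Promoters lay close to both thresholds of the rule on either side. Pthlh, Rnf144b and Asb13 were the members nearest to the CpG threshold, the first at 0.7001, and Sgsm1 at 0.6998 was the nearest promoter without a peak below it. On the side of the peaks, Sox11, Enah and Syngr2 lacked a promoter peak with an edge at 1004, 1008 and 1012 bp, while Pde8a and Setd1b had one at 1000 and 995 bp. With only peaks at or above the median width of the list, 3849 of the 7372 promoters (52.2%) lacked one, and windows of 500 bp or 2 kb gave 31.8% and 27.9%.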

How the data were processed

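The authors trimmed reads with Trimmomatic, aligned them with Bowtie2 2.3.5.1 to repeat-masked mm10 and removed blacklisted and greylisted regions with bedtools, per the series' design text and the submitters' processing notes. The deposited table gives peak coordinates only, with no height, score or p-value. Neither the peak caller, nor its threshold, nor how replicates were merged is given in the sources used here. Tracks per library were not used.

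Promoters came from GENCODE M21 and sequence from GRCm38 (soft-masked repeats). CpG islands were runs of 200 bp windows with at least 50% GC and CpG observed/expected of 0.6. Near-identical copies were sought with minimap2 2.31. Fits used numpy 2.4.6 and pandas 2.3.3 under Python 3.11.15, intervals scipy 1.17.1. The logistic fits were tested on simulated outcomes. Promoters are the units, and intervals cover counting error only.

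Named genes followed a rule: per list, up to 4 members without and 2 with a peak of highest CpG observed/expected; over the class, the 10 longest islands, 6 with most peaks near by, 6 farthest from a peak, and 3 on each side of both thresholds. Others (members of small counts, signalling, PML body, pluripotency and alternative-start genes) were chosen after their values were seen. Members and lists were chosen with earlier results of these data known. Alternatives varied window, CpG threshold, peak width, start, repeats, overlap, covariates, word span and copies. A gene list and a gene are not reported here.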

Additional observations from a re-analysis of the deposited data

How the results depend on the processing

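The share of CpG-rich promoters without a peak, 29.3%, moved beyond its interval with windows of 500 bp (31.8%) or 2 kb (27.9%), a CpG threshold of 0.60 (31.5%), peaks at or above the median width only (52.2%), a peak at any annotated start (26.9%) and overlapping windows counted once (30.7%). The median distance to the nearest peak was 23732 bp from the nearest annotated start and 61577 bp to the nearest wide peak. The share with a peak near by was 35.2% within 20 kb, 78.8% within 100 kb and 43.3% within 50 kb for wide peaks. Over all 11 features, 119 of 132 values under alternatives kept direction and side of the threshold. So did 141 of 156 for the 12 words called and 133 of 155 for the 12 not called, where 18 changed sign and 4 passed. CpG observed/expected of the flanks turned negative with windows of 2 kb (-0.028), at a CpG threshold of 0.80 (-0.040), with wide peaks only (-0.079), with windows under 20% masked (-0.013) and with GC content and CpG observed/expected as the only other terms (-0.10), passing the test in the last. With only those terms the share of transcripts starting at the 5' end turned positive (0.054). The repeat-masked share turned from -0.064 to 0.034 at 0.80 and passed at 0.60, and CCCGCCC turned to 0.11 without covariates; the cause was not tested. GC skew no longer passed at 0.80, nor CACACACA in a shorter word window. Of the 34 lists, 32 stayed on 1 side of the class share in every alternative run; the exceptions were Polycomb and trithorax genes (45.2% against 52.2% with wide peaks, 31.4% against 31.5% at 0.60) and Zfp genes (29.0% against 28.9% at 0.80). The set without near-identical copies was added after the data were seen. No paired analysis was possible because the peak list holds no value per library. Peak height and depth are unknown, so a promoter just under the authors' threshold cannot be told from one with no signal.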

Other observations

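Promoters without a peak also came in runs of neighbouring CpG-rich genes. The longest held 9 genes on chromosome 17, from Afdn to Gm3448 over 1280999 bp, and 6 of them (9030025P20Rik, Gm3417, Gm3435, Ermard, Tcte3 and Gm3448) have a near-identical copy elsewhere. A run of 8 on chromosome 2 held Evx2, Hoxd13, Hoxd9, Hoxd8, Hoxd3, Hoxd4, Hoxd1 and Mtx2 within 166247 bp, and peaks were present between them: Hoxd9 had 6 within 50 kb, the nearest 6005 bp from its 5' end. A run of 8 on chromosome 6 held Frmd4b, Foxp1, Gm20696, Gpr27, Prok2, Rybp, Shq1 and Gxylt2 over 3087194 bp. A run on chromosome 14 held 7 genes over 1004360 bp, among them Slc25a37, Entpd4, Entpd4b and Egr3. Near-identical copies are given here for the run on chromosome 17 only. Foxp1, Rybp and Egr3 had a peak 38, 39 and 0 bp from another annotated start. These runs were noted after the values were seen and were not tested.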
